A study of Rattus norvegicus with 15 samples.

Results

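Brush border peptidases are membrane enzymes on the apical surface of enterocytes, and 8 of them were followed along the rat gastrointestinal tract: Enpep, Anpep, Mep1a, Mep1b, Dpp4, Ace, Mme and Ggt1. They were taken by gene name from the array annotation, which gave 13 probes, all of which passed the detection filter, among 33655 genes and 38846 probes tested. The RNA came from suspended mucosal cells of untreated Sprague Dawley male rats, and each of 5 segments (stomach, duodenum, jejunum, ileum and colon) was sampled 3 times, which makes 15 samples. The labels name strain and sex for every sample except ileum 3 and give no age. Mucosal cells were freed from everted segments with pronase, so the samples hold whatever cells this step released and not a single cell type. Each segment is represented by 3 separate RNA isolations, and as nothing says that these came from separate animals, every p-value rests on the scatter among isolations, which may be technical.

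These enzymes finish protein digestion at the cell surface, where oligopeptides left by gastric and pancreatic proteases are cut into amino acids and short peptides that transporters then carry into the cell. Aminopeptidases (Anpep, Enpep) release amino acids from the amino end, dipeptidyl peptidase 4 (Dpp4) releases dipeptides ending in proline or alanine, angiotensin-converting enzyme (Ace) removes dipeptides from the carboxyl end, and the meprins (Mep1a, Mep1b) and neprilysin (Mme) cut within the chain. Gamma-glutamyltransferase (Ggt1) transfers or removes the glutamyl group of glutathione. Several also act on hormones: Enpep and Ace on angiotensins, Dpp4 on incretins, Mme on neuropeptides.

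For Anpep and Enpep, probes of one gene did not follow each other, and their sequences are given because every later value depends on the choice of probe. Anpep had a probe designed on its RefSeq mRNA (A_44_P500013, here the mRNA probe) and one designed on another database entry (A_44_P367716, here the upstream probe).
Anpep mRNA probe: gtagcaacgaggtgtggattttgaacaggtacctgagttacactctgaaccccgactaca
Anpep upstream probe: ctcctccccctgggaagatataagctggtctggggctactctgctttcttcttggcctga
The 60 bases of the upstream probe were found whole, on the gene's own strand, between bases -71 and -12 from the Anpep start in the RefSeq promoter window of build GRCr8. None of the other 12 member probes matched any of the 33469 promoter windows. The 250 bases before that start, at chr1:143195102-143195351 on the minus strand, are printed with the probe's bases in capitals.
Anpep upstream region: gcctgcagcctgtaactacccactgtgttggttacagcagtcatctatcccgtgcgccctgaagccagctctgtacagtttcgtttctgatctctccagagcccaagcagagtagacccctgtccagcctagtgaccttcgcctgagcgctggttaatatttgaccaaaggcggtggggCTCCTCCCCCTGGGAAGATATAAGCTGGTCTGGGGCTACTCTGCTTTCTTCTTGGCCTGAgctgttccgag
RefSeq lists 4 Anpep transcripts, and the gene record reaches 24346 bases further upstream, so the probe lies outside the transcript starting there and may lie within the span of another. The upstream probe had the higher mean log2 signal over the 15 samples and, by the rule for genes with several probes, stands for Anpep in the fit over genes, although the mRNA probe was the brighter in every jejunal and ileal sample. The mRNA probe is given beside it in each comparison of segments, a choice made after the values were seen. Counts over the members and correlations with other genes use the upstream probe.

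Enpep had 3 probes, all assigned to the same RefSeq mRNA.
Enpep A_44_P209788: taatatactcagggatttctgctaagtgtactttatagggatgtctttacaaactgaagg
Enpep A_44_P144857: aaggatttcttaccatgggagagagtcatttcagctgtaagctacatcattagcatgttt
Enpep A_43_P15289: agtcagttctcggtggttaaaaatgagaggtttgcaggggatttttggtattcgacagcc
The first, the brightest, stands for the gene. Over the 15 samples the log2 levels of the first and second probes correlated at r = 0.977, whereas the third correlated with them at 0.359 and 0.485 (a description, with segments and slides shared between the points). The third probe lay between 0.599 and 1.36 in all samples, while the first spanned 0.0657 to 46.7. The probes of Anpep correlated at r = -0.075. In contrast, the probes of Dpp4 followed each other (r = 0.981), and those of Ace less closely (r = 0.884).

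**Figure D1:**
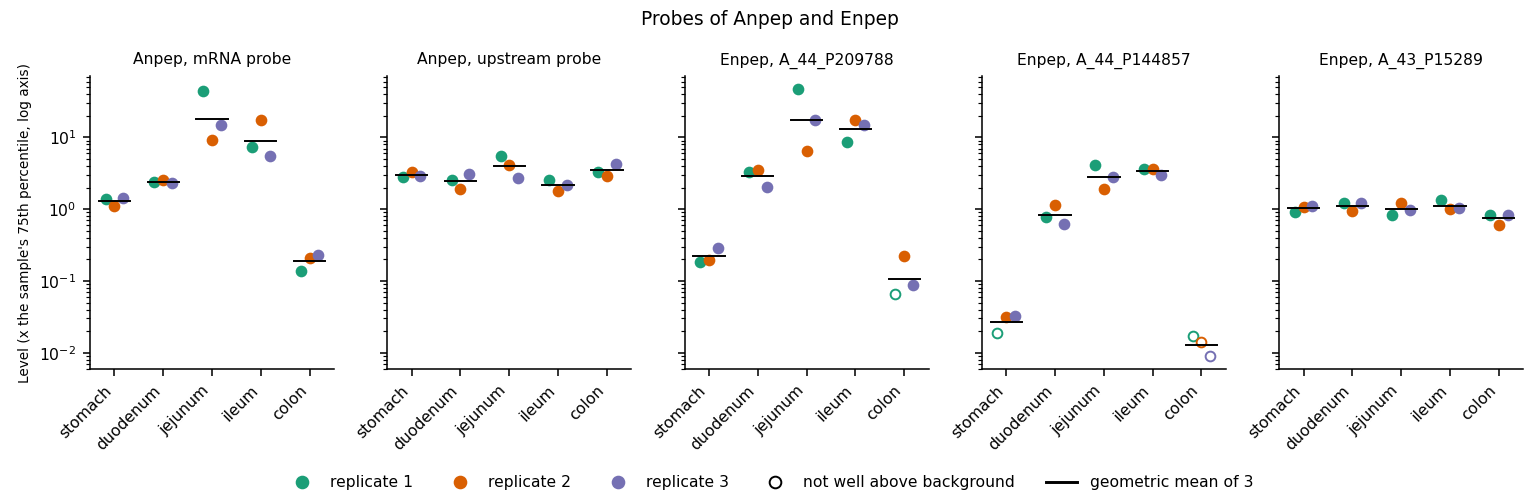
Levels of the 2 Anpep and 3 Enpep probes in each sample, by segment; the y axis is the level relative to the sample's 75th percentile on a log scale, points are samples, open points were not well above background, and lines are geometric means of 3 samples. The Anpep mRNA probe and the first 2 Enpep probes vary over the segments, while the Anpep upstream probe stays between 1.82 and 5.48 and the third Enpep probe between 0.599 and 1.36.

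All levels are processed intensities divided by the 75th percentile of the same sample, so a level of 1 is a probe at that percentile; levels of different probes are not compared with each other. Differences are on the log2 scale, from limma's moderated test across all genes with dye as a term and slide as a random block, and a gene was called when its Benjamini-Hochberg adjusted p was under 0.05. Between 44.2% (ileum 1) and 97.1% (stomach 3) of probes were well above background, and jejunum 1, at 52.2%, was the second lowest. The multiplier behind this test was 2.6 for the stomach, 13 for duodenum, jejunum and ileum, and not stated for the colon. The stomach was scanned at 10 micrometres and the other segments at 5. These percentages are therefore not alike between the stomach, the small bowel and the colon. Duodenum and jejunum samples shared arrays, but ileum, stomach and colon samples were hybridised on arrays and scanned on days of their own, so segment, array and scan day cannot be told apart for those comparisons. All 3 colon samples lay on 1 slide, so their scatter holds no difference between slides. The stomach and ileum samples each had a slide of their own. Markers of the stomach and ileum were highest in the segments so labelled: the summed level of 6 gastric markers was 295 to 627 in the stomach and at most 41.3 elsewhere, and that of 5 ileal markers was 60.7 to 89.0 in the ileum and at most 13.5 elsewhere. Colonic epithelium markers did not separate in this way, with a highest summed level of 12.3 in the colon and 14.9 in the duodenum. In such bulk samples, fewer cells of a type and less RNA per cell cannot be told apart.

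The question for the lower small bowel was which peptidases are higher and which are lower in ileum than in jejunum. Of the 8 peptidases, 2 were lower in the ileum, Mme and Ace, and none was higher, beside 2.74% of all genes called lower and 1.45% called higher. The members' median log2 difference was -0.80, against 0.10 for all genes tested. The gap between these medians depended on the processing: they were -0.47 and -0.0059 under quantile normalisation, and -0.22 and -0.13 under normexp background correction. Mme, the endopeptidase neprilysin, had levels of 1.14, 2.75 and 1.02 in the ileum, against 20.9, 4.34 and 5.20 in the jejunum. Every ileal sample lay below every jejunal one, and jejunum 1 was far above the other jejunal samples. The log2 difference was -2.42 ± 0.48 (SE, n = 3 each), which is 5.34-fold lower in the ileum (limma adjusted p = 0.0108). Ace, the peptidyl-dipeptidase of the angiotensin system, had levels of 0.589, 1.42 and 0.492 in the ileum, against 6.39, 1.47 and 1.54 in the jejunum. The groups did not overlap, but ileum 2 came close to the lower jejunal samples. Its log2 difference was -1.84 ± 0.48 (SE, n = 3 each), or 3.58-fold lower in the ileum (limma adjusted p = 0.0401). The dimmer second probe of Ace gave -1.46 ± 0.70 (SE) and was not called (limma adjusted p = 0.234), with overlapping groups. Of the 8 members, 3 showed no overlap between ileum and jejunum, beside 23.1% of all genes.

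Both calls were lost when some single samples were left out. Without jejunum 1, the Mme difference was -1.65 (limma adjusted p = 0.0478) and that of Ace -1.15 (limma adjusted p = 0.242). Without ileum 1 or ileum 3 the differences stayed near those in all samples but were not called. Mme stood at -2.23 without ileum 1 and -2.15 without ileum 3 (limma adjusted p = 0.0555 and 0.0587), and Ace at -1.67 and -1.54 (limma adjusted p = 0.120 and 0.146). The Ace call was also lost without duodenum 2, colon 1, colon 3 or any 1 stomach sample (limma adjusted p = 0.0514 to 0.0607). Those samples enter the fit through its shared spread, dye term and slide correlation. With jejunum 1 and ileum 1, the samples with the fewest probes above background, both left out, Mme stood at -1.45 (limma adjusted p = 0.151) and Ace at -0.96 (limma adjusted p = 0.399). All ileal samples were labelled with Cy3, whereas jejunum 3 was labelled with Cy5, so this comparison rests partly on the fitted dye term. In Cy3 samples only, the difference was -2.69 for Mme and -2.05 for Ace, and neither was called. The sign stayed negative for both genes under every alternative run.

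**Figure D2:**
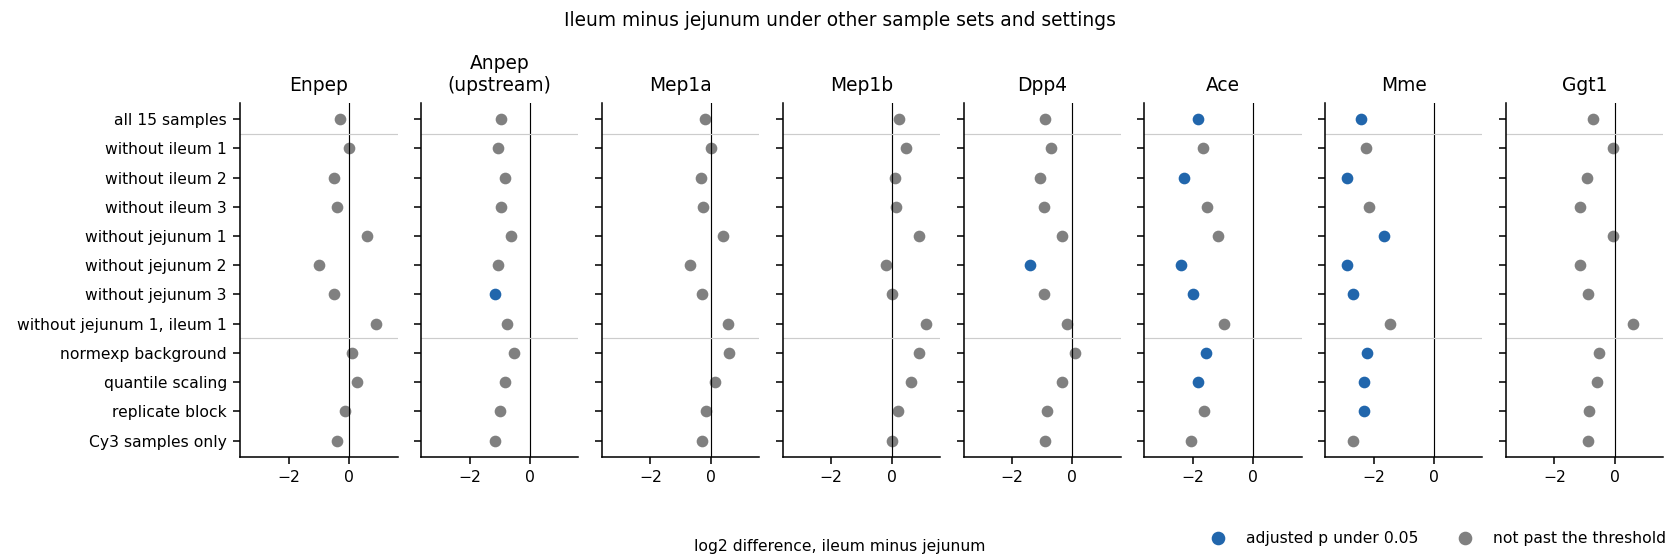
Log2 difference, ileum minus jejunum, of each peptidase in all 15 samples, with single ileal or jejunal samples left out, and under 4 other settings; points are fitted differences, blue where the adjusted p was under 0.05. Mme and Ace stay below 0 in each row, while Enpep, Mep1a, Mep1b, Dpp4 and Ggt1 cross 0 in at least 1 row.

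The aminopeptidases were not called between ileum and jejunum in all 15 samples. Anpep had levels of 7.29, 17.4 and 5.49 by its mRNA probe in the ileum, against 44.1, 9.11 and 15.1 in the jejunum. The groups overlapped, and the log2 difference was -1.01 ± 0.49 (SE, n = 3 each; limma adjusted p = 0.244). By the upstream probe it was -0.96 ± 0.30 (SE, n = 3 each; limma adjusted p = 0.0771), with levels of 2.53, 1.82 and 2.16 in the ileum, against 5.48, 4.17 and 2.75 in the jejunum, which did not overlap. Anpep passed the threshold by the upstream probe without jejunum 3 (limma adjusted p = 0.0397) or duodenum 3 (0.0469), and by the mRNA probe without jejunum 2 (0.0479). Enpep, the glutamyl aminopeptidase that converts angiotensin II, had levels of 8.71, 17.5 and 14.9 in the ileum, against 46.7, 6.56 and 17.7 in the jejunum. The ileal values lay within the jejunal range, and the difference of -0.31 ± 0.58 (SE) had a 95% interval from -1.53 to 0.90. The probes A_44_P144857 and A_43_P15289 gave 0.26 and 0.15, so the direction differed between probes, and neither was called. Its sign turned to 0.60 without jejunum 1.

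The meprins and Dpp4 did not pass the test either. Mep1a, the meprin alpha subunit, had levels of 4.62, 7.37 and 6.48 in the ileum, against 12.5, 4.32 and 5.34 in the jejunum (log2 difference -0.19, 95% interval -0.97 to 0.59). Mep1b, the membrane-anchored beta subunit, had levels of 6.01, 9.58 and 9.39 in the ileum, against 16.5, 3.97 and 4.40 in the jejunum, and gave the only positive difference of the 8 (0.24, 95% interval -0.64 to 1.12). In both genes every ileal sample exceeded jejunum 2, and jejunum 1 exceeded every ileal sample. Dpp4 had levels of 8.71, 14.7 and 12 in the ileum, against 37.6, 12.6 and 19.6 in the jejunum. Its difference of -0.90 ± 0.34 (SE, n = 3 each) was not called (limma adjusted p = 0.141), and its second probe gave -0.40. Without jejunum 2 Dpp4 stood at -1.40 and was called (limma adjusted p = 0.00997). Ggt1 had levels of 0.344, 1.15 and 1.56 in the ileum, the first of them not well above background, and 3.20, 0.761 and 0.830 in the jejunum. The groups overlapped (log2 difference -0.71, 95% interval -1.82 to 0.41).

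**Figure D3:**
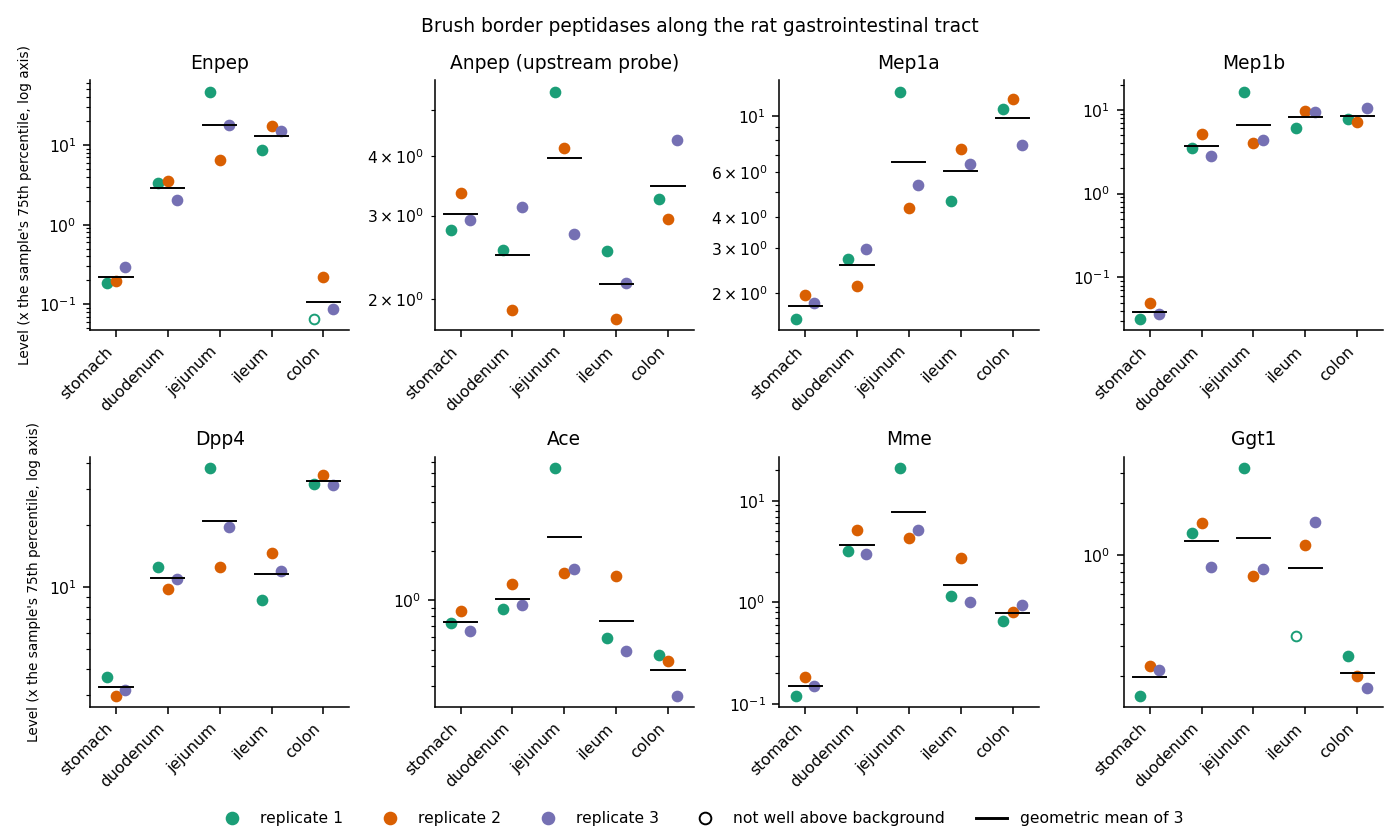
Levels of the 8 peptidases in each of the 15 samples, by segment from stomach to colon; the y axis is the level relative to the sample's 75th percentile on a log scale that differs between panels, points are samples, open points were not well above background, and lines are geometric means of 3. Jejunum 1 is the highest jejunal sample in every panel, and Mep1b in the stomach and Enpep in the colon lie far below the small bowel.

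Markers of enterocytes differed in both directions. Of 5 markers of ileal enterocytes, 3 were higher in the ileum and none was lower (median log2 difference 1.38). Of 8 markers of absorptive enterocytes, 5 were lower in the ileum and none was higher. The summed level of these 8 was 119 to 312 in the ileum and 407 to 1646 in the jejunum. Each of them was well above background in some sample of both segments. The structural markers Vil1, which bundles microvillus actin, and Cdh17, an enterocyte cadherin, differed by -0.97 and -1.24 and were not called (limma adjusted p = 0.0684 and 0.0698). Of 8 endothelial markers none was called, with summed levels of 3.26 to 5.0 in the ileum and 3.21 to 5.90 in the jejunum. Of 7 T cell markers, Cd3e and Cd8a were higher in the ileum, and their summed level was 18.8 to 36.4 in the ileum and 14.2 to 25.8 in the jejunum. The part of these cell types in the differences of the peptidases was not tested.

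Among 9 other genes of surface peptide digestion and uptake, 8 were tested, and 2 were higher and 1 lower in the ileum (median log2 difference 0.18). Naaladl1, an ileal acidic dipeptidase, had levels of 7.16, 8.88 and 6.77 in the ileum, against 2.85, 1.46 and 1.57 in the jejunum. It rose by 1.95 ± 0.28 on the log2 scale in the ileum (SE, n = 3 each; limma adjusted p = 0.00111). Xpnpep2, the membrane aminopeptidase P, was 2.35-fold higher (limma adjusted p = 0.0291), with levels of 0.700, 1.11 and 0.854 in the ileum, against 0.403, 0.386 and 0.343 in the jejunum. Neither gene showed overlap between the segments. Tmprss15, the enteropeptidase that activates trypsinogen, was lower in the ileum (limma adjusted p = 0.000808), where it was not well above background in any sample. Set against its own ileal signals, which lay above the dimmest detectable signal of each sample, it was 6.74-fold lower. This is a ratio of measured means, without the dye term or an allowance for noise.

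Of 9 cytosolic peptidases, 1 was lower in the ileum (Rnpep, aminopeptidase B, -0.87 ± 0.22 SE, limma adjusted p = 0.0368) and the median difference was -0.56. Of 12 amino acid transporters 10 were tested, and 1 was higher, the glutamate transporter Slc1a1 (1.35 ± 0.34 SE, limma adjusted p = 0.0337). Of 17 tested relatives of the peptidases that are not known for the brush border, 1 was higher, the lysosomal Dpp7 (1.06 ± 0.29 SE, limma adjusted p = 0.0475). These 3 calls were not firm: no relative was called when any 1 sample other than duodenum 3 or jejunum 2 was left out, no cytosolic peptidase without any 1 sample other than stomach 2, duodenum 2, duodenum 3 or jejunum 2, and no transporter without stomach 1, stomach 2, duodenum 1, jejunum 1, ileum 1 or ileum 3. Among 8 other brush border hydrolases, 4 were lower and 1 was higher in the ileum. Alpi, the intestinal alkaline phosphatase, was 31.7-fold lower (limma adjusted p = 9.02e-05), and Lct, lactase, was 8.39-fold lower (limma adjusted p = 0.0335); both were above background in 2 of 3 ileal samples. Plb1, a phospholipase, was 45.8-fold higher in the ileum, with levels of 4.24, 6.12 and 0.918 in the ileum against 0.0267, 0.0982 and 0.121 in the jejunum (limma adjusted p = 0.000212), where jejunum 1 was not well above background. In all, 11 genes of these lists were called, and this count was 4 without jejunum 1 or ileum 3, 5 without ileum 1 or stomach 1, 7 without stomach 2 or duodenum 1, and 21 without jejunum 2. The count over all genes moved as well: 922 were called lower and 489 higher in all 15 samples, and both directions together held 471 without jejunum 1, 501 without ileum 3, 630 without ileum 1, 881 without stomach 1, 2346 without duodenum 3 and 3614 without jejunum 2.

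**Figure D4:**
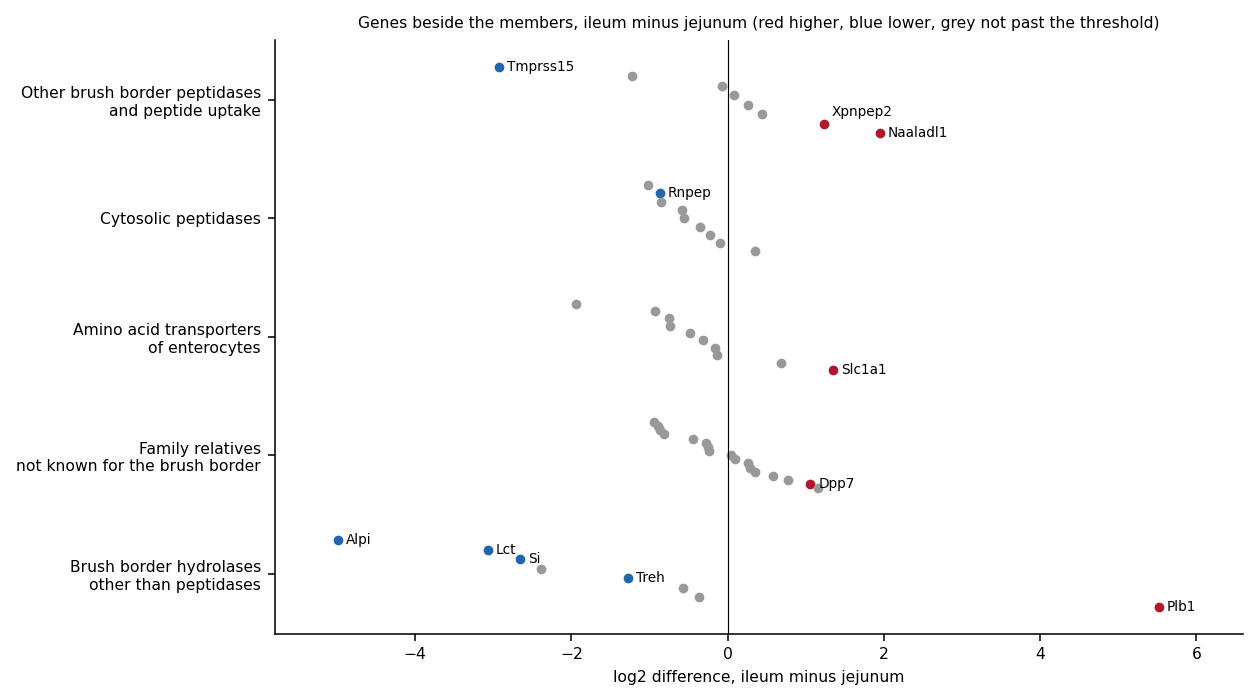
Log2 difference, ileum minus jejunum, of each tested gene in 5 lists set beside the peptidases; each point is a gene, red called higher in the ileum, blue called lower and grey not called, with names for called genes. Naaladl1 and Xpnpep2 are the genes called above 0 among the other brush border peptidases, and Alpi and Lct lie furthest below it and Plb1 furthest above it among the other hydrolases.

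Between duodenum and jejunum, neighbouring segments hybridised together as dye pairs, 1 of 8 members was called, Enpep, which was lower in the duodenum, beside 0.300% of all genes called lower and 0.250% called higher. Enpep had levels of 3.35, 3.52 and 2.06 in the duodenum, all below the jejunal values given above. The log2 difference was -2.71 ± 0.47 (SE, n = 3 each), or 6.54-fold lower (limma adjusted p = 0.0111). On the 3 shared arrays the duodenum over jejunum log2 ratio was -3.73, -1.67 and -2.41. The call was lost without duodenum 1 (limma adjusted p = 0.106), duodenum 2 (0.0617) or jejunum 3 (0.143). The second Enpep probe gave -1.76 ± 0.31 (SE, limma adjusted p = 0.0133), a call lost without duodenum 1 (0.439) or jejunum 3 (0.338). The third Enpep probe gave 0.20 ± 0.21 (SE) and was not called (limma adjusted p = 0.918).

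In the fit over probes the Anpep mRNA probe was also lower in the duodenum, with levels of 2.41, 2.58 and 2.30 there and every jejunal sample above them, beside 0.546% of all probes called. It was 7.69-fold lower (log2 difference -2.94 ± 0.40 SE, n = 3 each; limma adjusted p = 0.00135), and the ratios on the shared arrays were -4.10, -1.99 and -2.64. Fitted on those 3 within-array ratios alone, neither Enpep nor the Anpep mRNA probe passed the test (limma adjusted p = 0.875 and 0.915). The upstream probe differed by -0.62 ± 0.24 (SE) and was not called. Of the other members, Mep1a (2.73, 2.13 and 2.98 in the duodenum) and Ace (0.891, 1.25 and 0.935) lay wholly below the jejunum, with differences of -1.29 and -1.14 that were not called (limma adjusted p = 0.0699 and 0.319). Of the 8 members, 4 showed no overlap between duodenum and jejunum (Enpep, Mep1a, Ace and, by a narrow margin, Dpp4), beside 6.96% of all genes. Duodenal levels were 12.6, 9.82 and 10.9 for Dpp4, 3.47, 5.08 and 2.80 for Mep1b, and 3.20, 5.12 and 2.98 for Mme. Their differences from the jejunum were -0.89, -0.79 and -1.07, and none was called. Without jejunum 2, Mep1a, Dpp4, Ace and Mme were called lower in the duodenum as well (limma adjusted p = 0.00400, 0.00894, 0.0274 and 0.0494), and Mep1a was called without duodenum 3 (0.0271) or colon 3 (0.0357). Ggt1, with duodenal levels of 1.34, 1.55 and 0.857, differed by 0.08, with a 95% interval from -0.82 to 0.98.

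Compared with the small bowel, taken as the mean of duodenum, jejunum and ileum, 6 of 8 members were lower in the stomach and none was higher, beside 11.8% of all genes called lower and 15.5% called higher. The median difference was -2.27 for the members and 0.28 for all genes. Mep1b showed the widest gap, with gastric levels of 0.0320, 0.0500 and 0.0368, a log2 difference of -7.23 ± 0.34 (SE, n = 3 stomach and 9 small bowel) and a fold of 149.8 (limma adjusted p = 8.03e-11). Mep1a, its partner in heteromeric meprin, was 2.63-fold lower in the stomach, with gastric levels of 1.58, 1.96 and 1.83. Enpep was 39.6-fold lower (gastric levels 0.186, 0.199 and 0.291), and Mme was 23.2-fold lower (0.121, 0.185 and 0.151). The second Enpep probe, not well above background in stomach 1, was 74.0-fold lower (limma adjusted p = 1.74e-10). The third Enpep probe differed by -0.055 ± 0.21 (SE) and was not called (limma adjusted p = 0.870). Ggt1 was 5.53-fold lower, with gastric levels of 0.154, 0.229 and 0.218, and Dpp4 was 4.23-fold lower, with 3.69, 2.99 and 3.20. By the probes that stand for these 6 genes, no gastric sample reached any small bowel sample, a separation seen in 24.8% of all genes. The calls held in every alternative run.

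Ace and Anpep stood apart from those 6 in the stomach. Ace had gastric levels of 0.724, 0.858 and 0.654, within the small bowel range, and a difference of -0.73 ± 0.40 (SE; limma adjusted p = 0.192). Its second probe, at 0.165, 0.210 and 0.0649, gave -1.61 ± 0.57 (SE) and was called with overlapping groups (limma adjusted p = 0.0437). That call was lost without any 1 stomach, duodenum or colon sample and without jejunum 1 or jejunum 3 (limma adjusted p = 0.0503 to 0.275). The Anpep mRNA probe, at 1.40, 1.1 and 1.42, was 5.62-fold lower than in the small bowel (limma adjusted p = 0.000155), beside 28.4% of all probes called. The upstream probe, at 2.80, 3.34 and 2.94, differed by 0.13 ± 0.24 (SE; limma adjusted p = 0.737). All 8 enterocyte markers were lower in the stomach, with summed levels of 3.76 to 3.86, against 119 to 1646 over the 9 small bowel samples. Of the stromal markers, 6 of 8 endothelial and 5 of 6 fibroblast genes were higher in the stomach (summed endothelial level 15.5 to 16.9, against 2.20 to 6.67 in the small bowel). The part of these cells in the gastric levels of the peptidases was not tested.

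The colon split the peptidases in both directions. Of 8 members, 2 were higher than in the small bowel, Dpp4 and Mep1a, and 4 were lower, Enpep, Ggt1, Mme and Ace, beside 12.6% of all genes called higher and 13.2% called lower. Enpep had colonic levels of 0.0657, 0.219 and 0.0877, the first not well above background, and was 87.0-fold lower (log2 difference -6.44 ± 0.60 SE, n = 3 colon and 9 small bowel; limma adjusted p = 1.06e-06). Its second probe was not well above background in any colon sample. It was 56.8-fold lower, taking in each colon sample the higher of its own and the dimmest detectable signal. This ratio makes no allowance for noise. The third Enpep probe differed by -0.50 ± 0.26 (SE) and was not called (limma adjusted p = 0.176), though it was under normexp (limma adjusted p = 0.0461). The Anpep mRNA probe, at 0.139, 0.209 and 0.227, was 40.0-fold lower (limma adjusted p = 1.41e-06), beside 25.3% of all probes called. The upstream probe, at 3.25, 2.95 and 4.33, differed by 0.39 ± 0.31 (SE; limma adjusted p = 0.369). Both aminopeptidases, by these probes, had their lowest mean level in the colon, which was below the stomach for the Anpep mRNA probe (limma adjusted p = 0.00111) and not called for Enpep (limma adjusted p = 0.200).

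Ggt1 had colonic levels of 0.261, 0.200 and 0.171 and was 4.79-fold lower than the small bowel (limma adjusted p = 0.00594). Mme, at 0.661, 0.804 and 0.939, was 4.33-fold lower (limma adjusted p = 0.00531), and Ace, at 0.466, 0.430 and 0.263, was 3.00-fold lower (limma adjusted p = 0.0264). No colon sample of these 3 genes reached the small bowel range; 27.7% of all genes showed no overlap between colon and small bowel. The Ace call was lost without colon 1 (limma adjusted p = 0.0644), colon 3 (0.0914) or duodenum 3 (0.0539). In Cy3 samples only, the differences were -2.22 for Ggt1, -2.43 for Mme and -1.44 for Ace, and none was called.

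Dpp4 had levels of 31.6, 35.1 and 31.3 in the colon, above every small bowel sample except jejunum 1. It was 2.41-fold higher (log2 difference 1.27 ± 0.35 SE, n = 3 colon and 9 small bowel; limma adjusted p = 0.0144), and its second probe rose by 0.98 ± 0.26 (SE; limma adjusted p = 0.0120). Against the ileum alone Dpp4 was 2.98-fold higher (limma adjusted p = 0.0164), beside 7.73% of all genes called higher there. Mep1a had levels of 10.6, 11.7 and 7.67 in the colon, again below jejunum 1, and was 2.19-fold higher (limma adjusted p = 0.0377). The Mep1a call was lost without any 1 of the 3 colon samples (limma adjusted p = 0.0655 to 0.0907) and without stomach 1, stomach 2, duodenum 2 or jejunum 3 (limma adjusted p = 0.0533 to 0.0781). It was also lost under quantile normalisation, normexp, no intensity trend, the replicate block and samples of the contrast only (limma adjusted p = 0.0534 to 0.266). Under quantile normalisation the Dpp4 difference was 0.61 and not called (limma adjusted p = 0.174). The second Dpp4 probe was not called under quantile normalisation (0.53, limma adjusted p = 0.129), under normexp (0.64, limma adjusted p = 0.0751) or in Cy3 samples only (0.80, limma adjusted p = 0.201). Mep1b, at 7.78, 7.23 and 10.6 in the colon, differed by 0.59 ± 0.43 (SE; limma adjusted p = 0.334). Dpp4 is also carried by T cells as CD26: of 7 T cell markers 4 were lower in the colon, and their summed level was 4.33 to 4.41 in the colon against 10.3 to 36.4 in the small bowel. Of 8 enterocyte markers, 6 were lower in the colon, with a summed level of 115 to 127. All 5 markers of colonic epithelium were higher in the colon, and the summed level of the 4 measured in every sample had a median of 10.3 in the colon, against a range of 2.38 to 14.9 in the small bowel. The part of these cell types in the colonic levels of the peptidases was not tested.

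**Figure D5:**
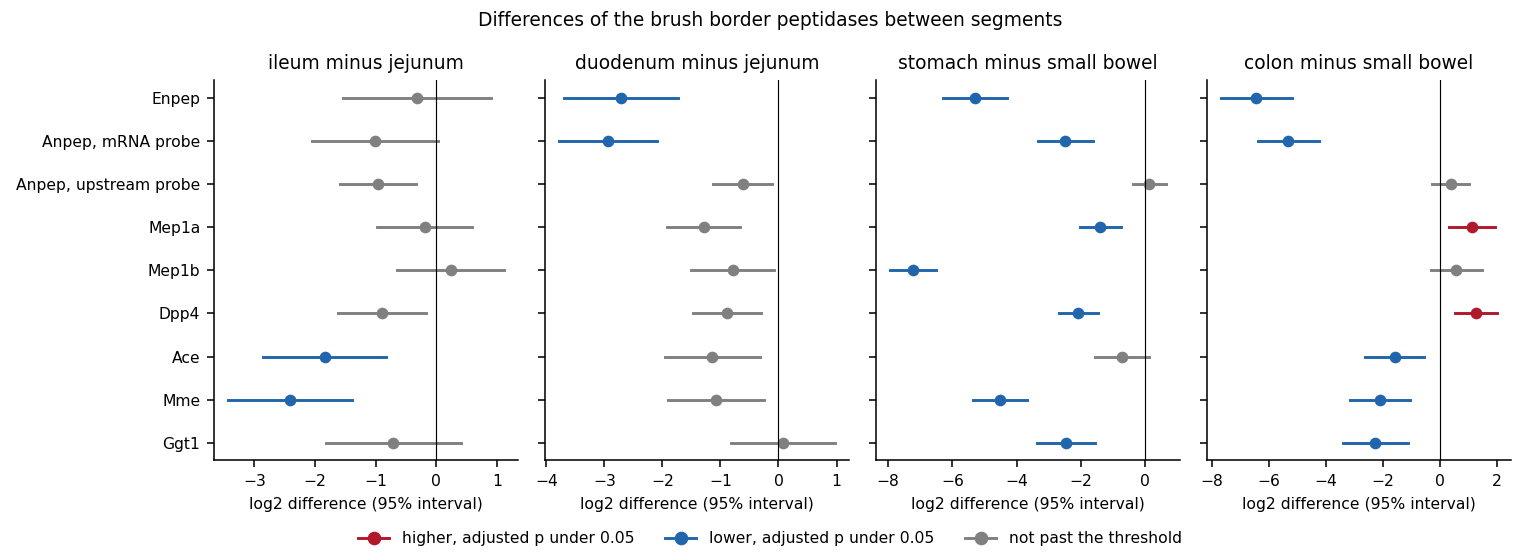
Log2 differences of the peptidases, with 95% intervals, in 4 comparisons; each row is a gene, or a probe of Anpep, and colour marks an adjusted p under 0.05. The coloured rows are Mme and Ace in the ileum and Enpep and the Anpep mRNA probe in the duodenum, all below 0. In the colon the coloured rows above 0 are Dpp4 and Mep1a, while Enpep and the Anpep mRNA probe lie furthest below it.

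Over the 5 segments, 7 of 8 members were called by the moderated F test, beside 42.1% of all genes; the upstream probe of Anpep was not (limma adjusted p = 0.0539), while its mRNA probe was (limma adjusted p = 7.39e-07). From high to low, Enpep ran jejunum, ileum, duodenum, stomach and colon, and only the steps from ileum to duodenum (limma adjusted p = 0.0453) and from duodenum to stomach (limma adjusted p = 0.000198) passed the test. Mme ran jejunum, duodenum, ileum, colon and stomach, with only the last step called (limma adjusted p = 0.00330). Mep1b ran colon, ileum, jejunum, duodenum and stomach, again with only the last step called (limma adjusted p = 5.69e-09). Dpp4 ran colon, jejunum, ileum, duodenum and stomach, and only its last step was called (limma adjusted p = 0.0010). No neighbouring step was called for Mep1a (colon, jejunum, ileum, duodenum, stomach), Ace (jejunum, duodenum, ileum, stomach, colon) or Ggt1 (jejunum, duodenum, ileum, colon, stomach). These orders follow mean log2 levels without the dye term, whereas the tests include it. In the fit, some uncalled steps had the opposite sign: Dpp4 ileum minus duodenum (-0.0094), Ace ileum minus stomach (-0.12) and Ggt1 duodenum minus jejunum (0.08). Of the 80 member differences over all 10 pairs of segments, 37 were called, beside 17.4% of all gene differences over those pairs.

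The members fell into patterns that correlated across the 15 samples, given as a description since the points share segments, slides and depth. Dpp4 correlated with Mep1a at r = 0.902 and with Mep1b at 0.872, and Enpep correlated with Ggt1 at 0.863 and with Mep1a at 0.189. The genes most like Mep1b were Heph (r = 0.994), Cyp3a62 (0.993) and Pde9a (0.987), and those most like Mme were Dgat1 (0.989), Plpp1 (0.981) and RT1-M6-2 (0.978), each among 8165 genes. For Enpep they were Rab31, Sccpdh and Pla2g12b (all 0.972), and for Ggt1 Mfsd2a (0.958), Slc52a2 (0.951) and Sectm1b (0.930). Dpp4 was followed by Ctss (0.959), Ramp1 (0.957) and B2m (0.956), and Mep1a by Car4 (0.936), Dpep1 (0.934) and Muc2 (0.915). For Ace the nearest genes were Sec16b (0.939), Cyp2j4 (0.918) and Oasl2 (0.916). The upstream probe of Anpep was nearest to Sp9 (0.943), Cdk18 (0.942) and Nanos1 (0.936).

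A set of 4 short motifs of intestinal transcription factors was searched on both strands of the promoter windows of all 8 members. The HNF1 letters GTTAAT were found in Anpep, where they start at base -98, and in Mep1b at -246 and, on the opposite strand, at -72, and 7.5% of 33469 promoter windows hold them. The CDX letters TTTATG occurred in Mep1a at -11, and 12.7% of windows hold them. The GATA letters AGATAA (11.6% of windows) and the HNF4 letters CAAAGTCCA (0.4%) were not in any member's window. The matches are letters in a window and not measured sites.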

How the data were processed

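Agilent whole-genome rat arrays measured total RNA of 15 mucosal cell samples, 3 from each of 5 segments. The deposited intensity values are the scanner software's processed signals, background-subtracted and dye-normalised per the file headers; the channel of the labelled dye was used, and the deposited value table held the same intensity within 0.02 on the log2 scale for 100.0% of 43628 spots. Software versions and detection limits differed between segments per the file headers.

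From these, log2 intensity minus each sample's 75th percentile was computed. Probes were kept where all 3 samples of some segment exceeded background clearly by the software's test (38846 of 41012), leaving out outlier spots, and the brightest probe stood for a gene (33655 genes). limma 3.58.1 in R 4.3.3 fitted segment and dye with slide as a random block (correlation 0.361) and an intensity trend, with two-sided tests and Benjamini-Hochberg adjustment over all genes of a contrast. No gene was called for dye. The procedure was run on simulated data with normal noise and no dye effect or outlying sample, so that check does not cover those features. Arrays give no counts, so their number limits the precision.

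All 8 members are described. From each list the 3 called genes with the largest ileum minus jejunum difference are named, and for each member the 3 genes of highest correlation. Members, lists and markers were chosen with earlier results of these data known. Gene names follow the array files, updated through RefSeq where matched (10725 probes by accession, 5568 by symbol, 3729 by an older symbol). The files place the mRNA probe of Anpep on no stated genome build. Sequences of promoters are RefSeq's (GRCr8), and all 8 members matched. Other scalings, backgrounds, filters, dye and block terms, probe rules and left-out samples were tried as alternatives. The mRNA probe for Anpep, the fit over probes and the joint removal of jejunum 1 and ileum 1 were added after the data were seen.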

Additional observations from a re-analysis of the deposited data

How the results depend on the processing

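Of the 8 members, the counts lower in ileum than jejunum (2), lower in duodenum than jejunum (1) and higher in colon than small bowel (2) depended on the setting. In Cy3 samples only they were 0, 0 and 0, with 1 lower in the colon, 22 pairwise calls and 4 genes of the lists; samples of the contrast only gave 0, 0 and 1, with 2 list genes. Without an intensity trend, 1 was lower in the ileum and 1 higher in the colon, with 6 list genes; the replicate block gave the same 1 and 1, with 4 list genes. Same-numbered ileal and jejunal samples correlated in their deviations at 0.004 to 0.194, so the numbers were not taken as pairs. The mean of all probes gave 1 lower in the ileum and 2 lower in the duodenum; no dye term, scan day as block and the mRNA probe for Anpep also gave 2 in the duodenum, and no slide block and the within-array log ratios gave 0. Scan day as block called 6 list genes. Quantile normalisation called 0 higher in the colon and normexp 1. Leaving out 1 sample gave 0 to 3 lower in the ileum, 0 to 5 lower in the duodenum (5 without jejunum 2), 1 to 2 higher in the colon, and 4 to 21 list genes. Without jejunum 1 and ileum 1 together, 0 members were lower in the ileum and 4 list genes were called.

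Uncalled differences changed sign. Ileum minus jejunum, Enpep was 0.26 (quantile), 0.0932 (normexp), 0.0339 (mean of probes) and 0.89 (without jejunum 1 and ileum 1), and -0.98 to 0.60 with 1 sample left out (positive without jejunum 1). Mep1a was 0.13, 0.60 and 0.58 under quantile, normexp and that joint removal, and -0.70 to 0.40 with 1 sample left out (positive without jejunum 1 or ileum 1). Dpp4 was 0.0836 under normexp, and Mep1b -0.17 to 0.90 with 1 sample left out (negative without jejunum 2). The joint removal gave 0.61 for Ggt1, 0.0152 for the second Dpp4 probe and -0.12 for the third Enpep probe. Duodenum minus jejunum, Ggt1 was -0.0603 (no dye term; within-array), -0.22 (Cy3 only) and -0.26 to 0.56 with 1 sample left out, and the third Enpep probe -0.0832 under normexp. Stomach minus small bowel, that probe was 0.0397 under median scaling and -0.16 to 0.0438 with 1 sample left out. Anpep in stomach minus small bowel was -1.18 by the mean of probes and -2.49 by the mRNA probe; in colon minus small bowel it was -2.46, -5.32 and, under normexp, -0.0327. The causes were not tested. Over all genes, the median ileum minus jejunum difference was 0.10, and -0.13 under normexp; in the stomach it was 0.28 and -0.06, and in the colon 0.0032 and 0.33.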
